A study of Rattus norvegicus with 9 samples.

Results

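Rat brain libraries were compared to describe how the pool of tRNA fragments differed between intracerebral haemorrhage with and without Buyang Huanwu Decoction (BYHWD). The comparison took 3 libraries labelled ICH + BYHWD against 3 labelled ICH and covered all 530 fragments listed in the tables, with no choice by value. All 6 libraries came from male Sprague-Dawley rats in which 0.5 U of collagenase type VII in 2.5 µl had been injected into the right globus pallidus, and the tissue around it was taken on day 21. The ICH + BYHWD rats had in addition received the decoction by gavage for 21 days, 1 dose of 4.36 g/kg daily. A further 3 sham libraries, from rats injected with saline in place of collagenase, are given beside the 6 as a level without haemorrhage. Age, gavage of a vehicle in rats without the decoction, and a sham group given the decoction are not described in the labels. Whether each library is a separate rat is not stated either, so every p-value measures the spread between these libraries.

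Transfer RNAs are cut into stable small RNAs in many tissues. Cleavage in the anticodon loop by ribonucleases such as angiogenin under stress gives the longer tiRNAs, and cuts elsewhere in mature or precursor tRNAs give the shorter tRFs. Some of these fragments repress translation initiation and others associate with Argonaute proteins, and they have been studied in brain injury and ischaemia. BYHWD is a decoction of traditional Chinese medicine with Astragalus root as its main herb, used after stroke. The fragments are named here by their identifiers alone, because no source used here pairs them with a sequence, a fragment type or a parent tRNA. The tables hold no genes, so the tissue and its cell types were not checked. In bulk tissue, a lower level from fewer cells of a type cannot be told apart from less RNA per cell.

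The 6 library totals ran from 683782 to 1066616 tags, and listed fragments held 72.6 to 80.6% of them. Levels below are the deposited TPM, which here means tags scaled to the same library total in each library, with no correction for length. Shares are percentages of the listed tags. The lowest level listed in a library lay between 134 and 152 TPM, so a fragment at 0 was read as below a listing minimum. In ICH + BYHWD 1, 2 and 3, 420, 413 and 442 of the 530 fragments were above 0, against 427, 400 and 428 in ICH 1, 2 and 3 (425 ± 15.1 and 418 ± 15.9, SD, n = 3, exact permutation p = 0.7). The same fragments were for the most part listed in both groups: 334 were above 0 in all 6 libraries and 28 in none of them.

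ICH 2 was far from the ICH + BYHWD libraries and from ICH 3, but near to ICH 1. The Bray-Curtis distance between 2 libraries, the share of listed tags that would have to be reassigned to turn one profile into the other, averaged 0.275 from ICH 2 to the other 5 and 0.179 to 0.203 for each of the others. ICH 2 was at 0.299, 0.326 and 0.260 from ICH + BYHWD 1, 2 and 3, while ICH 3 was at 0.168, 0.121 and 0.166 from them. ICH 1 and ICH 2 were at 0.159 from each other, and ICH 2 was the nearest of the other 5 libraries to ICH 1. ICH 2 and ICH 3 were at 0.334 from each other, the largest distance among the 15 pairs. ICH 3 was thus nearer to each ICH + BYHWD library than to ICH 2. With sham included, the smallest distance between any 2 libraries was 0.0866, between ICH 1 and sham 3. ICH 2 was at 0.217 from sham 3, nearer than to ICH 3 or any ICH + BYHWD library. The nearness of ICH 1 and ICH 2 was therefore not particular to untreated haemorrhage.

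**Figure D1:**
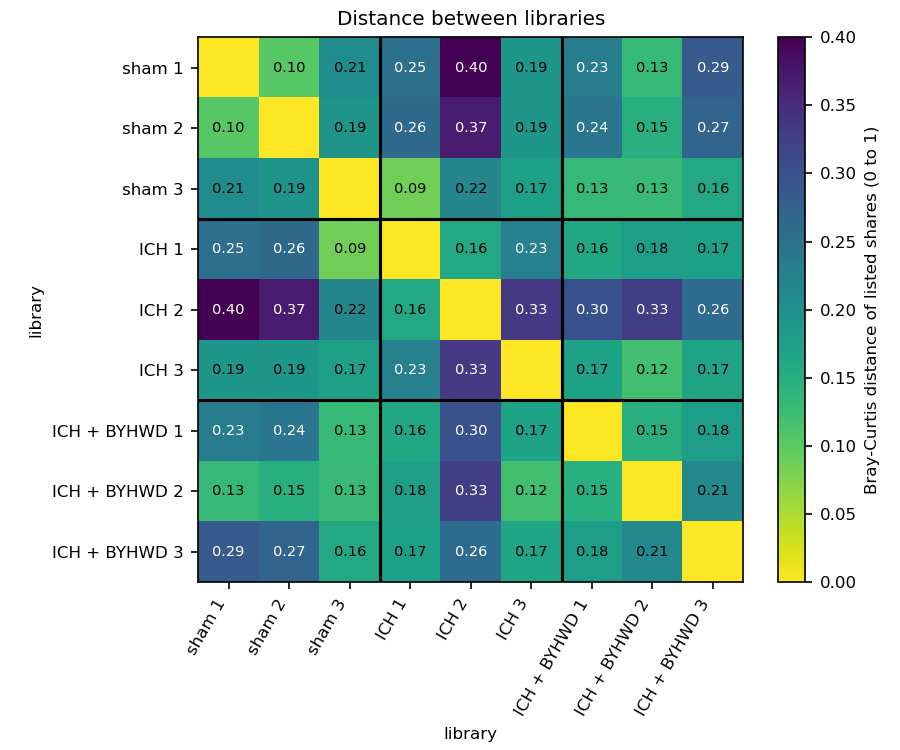
Matrix of the Bray-Curtis distance of listed shares between each pair of the 9 libraries (both axes), coloured from 0 for identical profiles to the largest value and printed in each cell, with lines between the groups. ICH 2 is far from sham 1, sham 2, ICH 3 and the ICH + BYHWD libraries but near to ICH 1. The smallest distance between different libraries is that of ICH 1 and sham 3. ICH 3 is nearest to ICH + BYHWD 2, and the 3 ICH + BYHWD libraries are between 0.148 and 0.212 from each other.

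The mean distance was 0.178 within ICH + BYHWD, 0.239 within ICH and 0.206 between the groups. Libraries of different groups were therefore no farther apart than libraries of the same group, with a difference between minus within of -0.00317 (exact permutation p = 0.9). The smaller mean within ICH + BYHWD differed from that within ICH by -0.0608 (exact permutation p = 0.7). This difference was 0.020 without ICH 3 and -0.155 without ICH 1. At the level of single fragments, the SD of the log2 share over the 3 libraries was smaller in ICH + BYHWD than in ICH for 226 of the 311 fragments above 0 in all 9 libraries. Its median was 0.33 in ICH + BYHWD, 0.54 in ICH and 0.25 in sham on the log2 scale (exact permutation p = 0.6 for ICH + BYHWD against ICH). Without ICH 2 the ICH median was 0.38 and 179 fragments varied less in ICH + BYHWD. Without ICH 3 these values were 0.35 and 160, and without ICH 1 they were 0.74 and 250.

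Listed tags were spread over more fragments in the mean ICH + BYHWD library than in the mean ICH library. The effective number of fragments, the exponential of the Shannon entropy of the listed shares, was 111, 101 and 106 in ICH + BYHWD 1, 2 and 3 and 85.2, 70.1 and 112 in ICH 1, 2 and 3. It was 96.9, 91.6 and 92.3 in sham. ICH 1 and ICH 2 lay below the other 7 libraries and ICH 3 lay above all of them, so the groups overlapped (106 ± 5.02 against 89.1 ± 21.2, SD, n = 3, exact permutation p = 0.4). The difference of 16.6 became 7.10 without ICH 2 and 28.1 without ICH 3. The smallest number of fragments that together held 50% of the listed tags was 18, 14 and 15 in ICH + BYHWD and 12, 10 and 16 in ICH. These numbers also overlapped between the groups (15.7 ± 2.08 and 12.7 ± 3.06, SD, n = 3, exact permutation p = 0.3). Their difference of 3 fragments was 1.67 without ICH 2, 4.67 without ICH 3 and 1.83 without ICH + BYHWD 1. All 56 measures of the pool tested in this way had a Benjamini-Hochberg adjusted p of at least 0.589, and 3 libraries against 3 cannot give an exact p below 0.1.

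Fragments were placed in 4 abundance classes by the rank of their mean share of listed tags over all 9 libraries. The 10 most abundant held 44.3% of listed tags on average, ranks 11 to 50 held 26.1%, ranks 51 to 150 held 15.9% and the 380 fragments beyond rank 150 held 13.7%. The share of the 10 most abundant was 38.4%, 43.7% and 42.5% in ICH + BYHWD 1, 2 and 3 and 46.1%, 47.5% and 42.7% in ICH 1, 2 and 3. Here the groups overlapped only between ICH + BYHWD 2 and ICH 3 (41.5% ± 2.8 against 45.4% ± 2.44, SD, n = 3, exact permutation p = 0.2). The sham shares of 44.2%, 47.1% and 46.1% were in the range of ICH.

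The less abundant classes had the opposite order of means. Ranks 51 to 150 held 17.5%, 16.7% and 16.2% in ICH + BYHWD against 15.1%, 13.8% and 17.1% in ICH (exact permutation p = 0.3). Fragments beyond rank 150 held 15.3%, 13.5% and 15.8% against 12.4%, 11.3% and 15.2% (exact permutation p = 0.2). In both classes ICH 1 and ICH 2 were the lowest libraries of the 6 and ICH 3 was among the ICH + BYHWD values. Ranks 11 to 50 held 28.8%, 26.1% and 25.5% against 26.4%, 27.4% and 25.0%, and the mean difference of 0.521 percentage points turned to -0.114 without ICH 3. Without ICH 2 the difference in the 10 most abundant was -2.87 percentage points in place of -3.90, that in ranks 51 to 150 was 0.732 in place of 1.49, and that beyond rank 150 was 1.06 in place of 1.89.

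**Figure D2:**
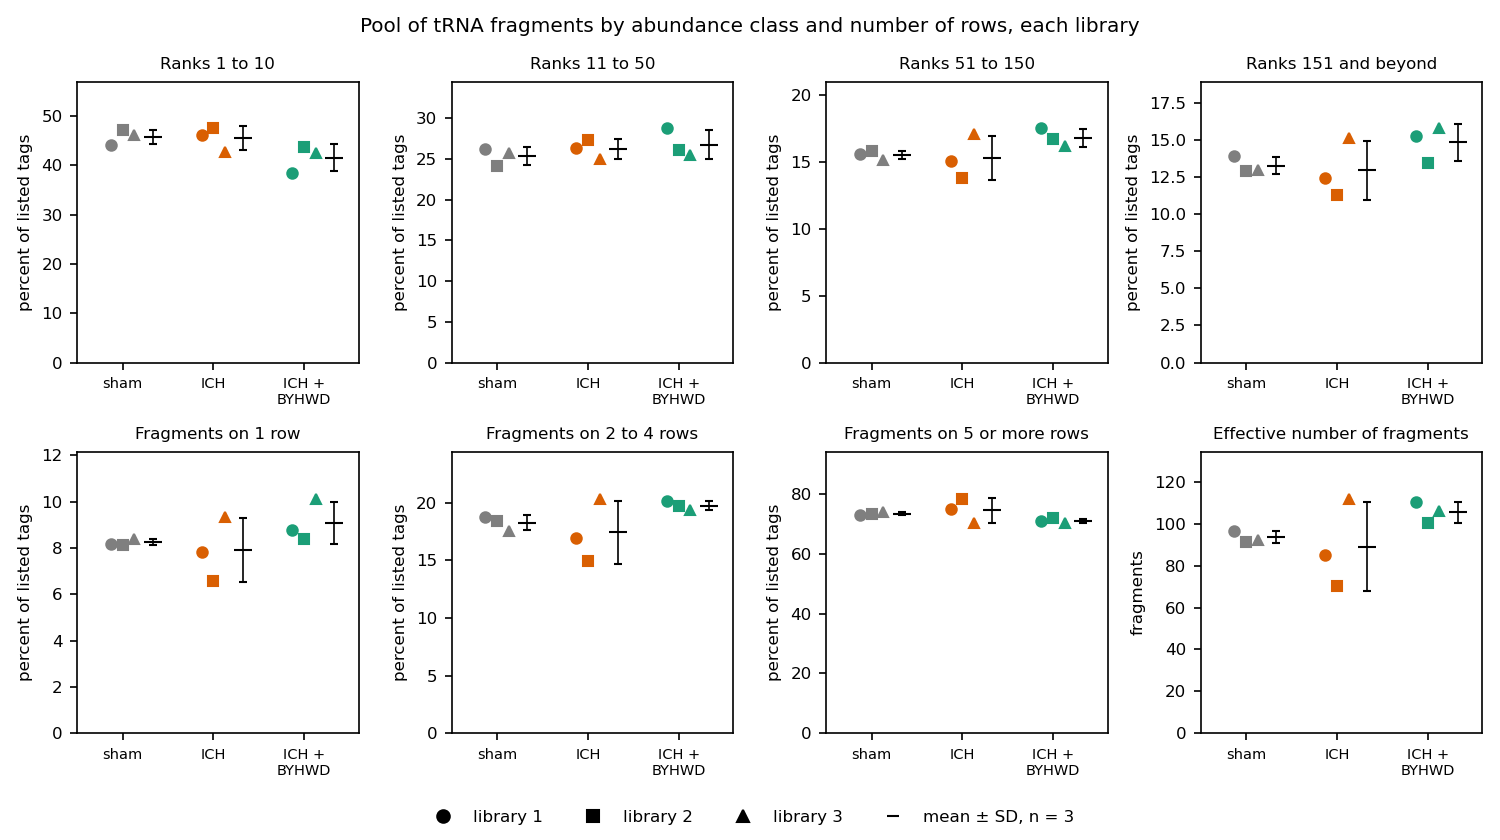
Share of listed tags (percent, y axis from 0) in each library for the 4 abundance classes and the 3 classes by number of rows, and the effective number of fragments in the last panel, with 1 symbol per library and the group mean with SD (n = 3). ICH 3 falls among the ICH + BYHWD points in 4 of the 7 classes, while ICH 1 and ICH 2 hold more of their tags in the 10 most abundant fragments and in fragments on 5 or more rows.

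A fragment stood on 1 or more rows of a table with the same count on each, and the sources used here do not say what a row stands for. The number of rows went with abundance: 9 of the 10 most abundant fragments were on 5 or more rows, against 85 of the 380 beyond rank 150. Fragments on 1 row (183) held 8.76%, 8.40% and 10.1% of listed tags in ICH + BYHWD and 7.84%, 6.58% and 9.36% in ICH (exact permutation p = 0.4). Those on 2 to 4 rows (184) held 20.2%, 19.7% and 19.4% against 17.0%, 15.0% and 20.4% (exact permutation p = 0.4). Those on 5 or more rows (163) held 71.0%, 71.9% and 70.5% against 75.2%, 78.5% and 70.3% (exact permutation p = 0.4). ICH 2 was the lowest of the 6 libraries in the first pair of classes and the highest in the third, and ICH 3 was nearer to the ICH + BYHWD mean than ICH 2 in each class. The differences of 1.17, 2.33 and -3.50 percentage points over the 3 classes became 0.496, 1.09 and -1.58 without ICH 2 and 1.89, 3.79 and -5.68 without ICH 3. Without ICH + BYHWD 3 the difference on 1 row was 0.655.

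The last class was then split, a step chosen after these values were seen. The exact p-values in this paragraph are therefore descriptive only, and they were not among the 56 tests adjusted. The 46 fragments on 10 or more rows held 33%, 36.2% and 41.7% in ICH + BYHWD and 42.5%, 50.3% and 39.0% in ICH (36.9% ± 4.41 against 44.0% ± 5.80, SD, n = 3, exact permutation p = 0.2). The difference of -7.01 percentage points was -3.82 without ICH 2. The 117 fragments on 5 to 9 rows had means in the other order, 34.2% ± 4.81 against 30.7% ± 2.31 (SD, n = 3, exact permutation p = 0.3). Their difference of 3.51 points was 2.24 without ICH 2, 1.58 without ICH + BYHWD 1 and 6.21 without ICH + BYHWD 3. Most of the tags on 10 or more rows belonged to the sets led by AS-tDR-007516 and AS-tDR-000052 described next. The 33 fragments on 10 or more rows outside these held 4.45% ± 0.423 in ICH + BYHWD and 4.79% ± 0.732 in ICH (SD, n = 3, exact permutation p = 0.6). The difference of -0.341 points turned to 0.0693 without ICH 2.

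Sets were built from the order of rows, which uses no count: fragments that stood next to each other at 2 or more places of a table were joined. This gave 42 sets of 2 or more fragments with 340 members and 91.4% of listed tags on average, and 232 sets when single fragments are counted. Whether members of a set share a parent tRNA was not tested. Each set is named by its most abundant member.

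In each of the 3 most abundant sets, the range over the ICH + BYHWD libraries was wider than the difference between the group means. The set of 8 led by AS-tDR-007516, which contains 7 of the 10 most abundant fragments, held 15.0%, 22.9% and 20.5% in ICH + BYHWD 1, 2 and 3 and 20.5%, 23.7% and 24.3% in ICH 1, 2 and 3. Its sham shares were 27.3%, 33.3% and 23.8%. By edgeR on summed counts with TMM scaling its log2 fold change was -0.48 (SE 0.23, unadjusted p = 0.0686, adjusted p = 0.523). The difference in share of the set of AS-tDR-007516 was -1.12 percentage points without ICH + BYHWD 1 and -5.08 without ICH + BYHWD 2.

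The set of 9 led by AS-tDR-000052, the most abundant fragment, held 13.8%, 9.68% and 17.7% in ICH + BYHWD and 18.1%, 21.4% and 11.2% in ICH. The mean difference in share was -0.913 points without ICH 2, -6.03 without ICH 3, -1.14 without ICH + BYHWD 2 and -5.18 without ICH + BYHWD 3. The set was at 4.39%, 4.2% and 14.4% in sham, where sham 3 was apart. AS-tDR-000052 made up 81.0%, 80.8% and 75.9% of its set in ICH + BYHWD and 83.5%, 82.3% and 70.6% in ICH. The set of 6 led by AS-tDR-001297 held 17.5%, 18.1% and 11.1% against 15.7%, 11.6% and 12.9%, with a log2 fold change of -0.02 under TMM and 0.22 without scaling. Its difference in share ran from 0.883 points without ICH + BYHWD 2 to 4.41 without ICH + BYHWD 3. All 3 sets overlapped between the groups.

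Within the set of 8, libraries differed in which members carried the tags. AS-tDR-007683, AS-tDR-007744 and AS-tDR-007412, picked after their values were seen and so given with no test, held 36.8%, 56.0% and 14.5% of the set in ICH 1, 2 and 3. In ICH + BYHWD they held 18.8%, 25.7% and 19.5% of it, inside the range of the ICH libraries, and in sham 25.0%, 34.1% and 35.7%. As a share of all listed tags the 3 fragments were at 2.82%, 5.89% and 4.0% in ICH + BYHWD and 7.54%, 13.3% and 3.53% in ICH. Their mean difference of -3.89 percentage points became -1.30 without ICH 2 and -6.18 without ICH 3. The other 5 members differed by 0.532 percentage points, with 15.3% ± 2.66 in ICH + BYHWD and 14.7% ± 5.39 in ICH (SD, n = 3), and this difference was -1.60 without ICH 2 and 3.56 without ICH 3.

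The sets of 28 and of 22 were the next in abundance. The set led by AS-tDR-002004 held 6.05%, 5.5% and 6.25% in ICH + BYHWD and 6.40%, 8.42% and 5.80% in ICH, with a log2 fold change of -0.51 under TMM (adjusted p = 0.523, edgeR) and -0.21 without scaling. Its mean difference in share was -0.165 points without ICH 2 and -1.48 without ICH 3. Its leading fragment made up 26.9% of the set in ICH 2 and 13.5% in ICH 3. Of the 28 members, 13 had a positive log2 fold change with TMM and 15, the leading fragment among them, a negative one, against 15 and 13 without scaling. Over all 455 tested fragments, 218 were positive and 237 negative with TMM, against 285 and 170 without scaling. The set led by AS-tDR-007579 held 5.61%, 6.23% and 4.75% against 4.94%, 3.97% and 5.91%, with log2 fold changes of -0.05 under TMM and 0.16 without scaling. The difference in its share ran from 0.109 points without ICH 2 to 1.07 without ICH 3.

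Of 181 sets tested with edgeR, single fragments included, 0 passed the adjusted threshold of 0.05 as higher (0%) and 0 as lower (0%), with adjusted p-values of 0.461 and above. Without adjustment, 11 were higher (6.08%) and 3 lower (1.66%) at p under 0.05. Limma-voom called 0, with 13 and 6 at an unadjusted p under 0.05, while DESeq2 called 3 higher and 3 lower. The pairs that DESeq2 called were those led by AS-tDR-007592 (adjusted p = 0.0224) and AS-tDR-000045. The single fragments it called were AS-tDR-006535 and AS-tDR-010070 (each adjusted p = 0.0411), AS-tDR-010041 and AS-tDR-010048. AS-tDR-010041, AS-tDR-010048 and the pair led by AS-tDR-000045 were listed at 0 in all libraries of one of the groups. On shares of listed tags, the 3 libraries of ICH + BYHWD all lay above those of ICH for 17 of 232 sets (7.33%) and all below for 3 (1.29%). With TMM factors these counts were 18 (7.76%) and 9 (3.88%). Among the 42 sets of 2 or more they were 4 and 1 on shares.

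The set of 4 led by AS-tDR-006089 was the one of 2 or more members with the smallest p among those higher in ICH + BYHWD. It held 1.13%, 1.11% and 1.57% of listed tags in ICH + BYHWD, 0.741%, 0.457% and 1.03% in ICH and 0.952%, 1.12% and 0.891% in sham. The ICH + BYHWD libraries lay above the ICH libraries without overlap, and the nearest pair was ICH + BYHWD 2 and ICH 3. Its log2 fold change was 0.60 (SE 0.19, unadjusted p = 0.0118, adjusted p = 0.461, edgeR). All 4 members had a positive fold change with TMM and without scaling, beside 218 and 285 of all 455 tested fragments. TPM levels were higher with no overlap for 3 of the 4, beside 9.81% of all 530 fragments. AS-tDR-006089 made up a slightly larger part of its set in ICH + BYHWD, 44.8%, 44.7% and 43.3% against 42.3%, 41.2% and 41.4% in ICH, with 44.3% ± 0.879 in sham (SD, n = 3).

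**Figure D3:**
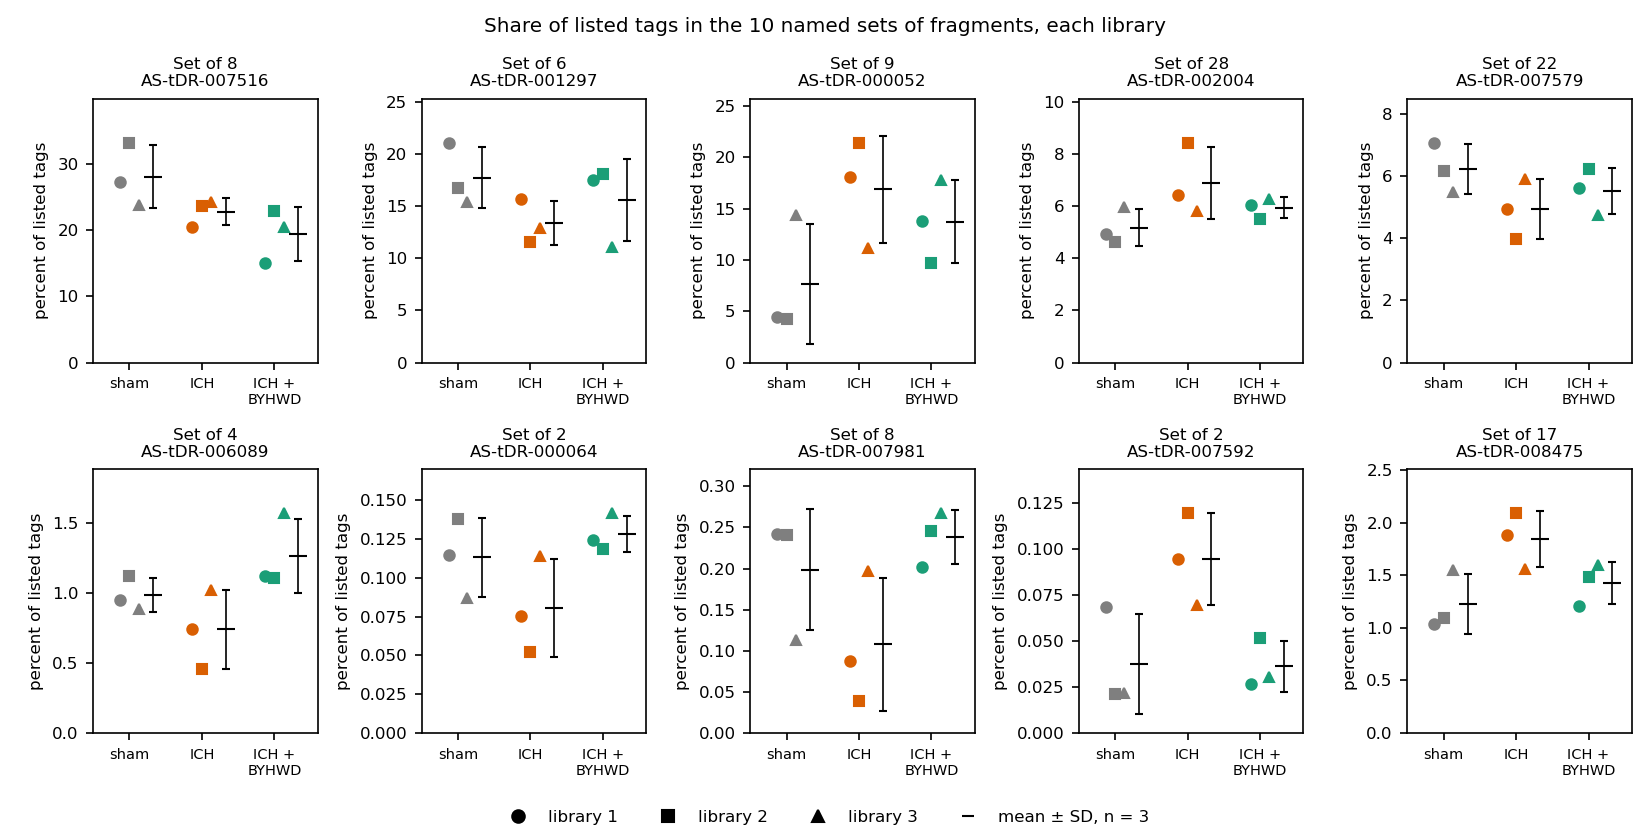
Share of listed tags (percent, y axis from 0 with its own range in each panel) of the 10 named sets, with 1 symbol per library and the group mean with SD (n = 3), each set named by its most abundant member. ICH and ICH + BYHWD overlap in each of the 5 most abundant sets (upper row) and are separate in the sets led by AS-tDR-006089, AS-tDR-000064, AS-tDR-007981 and AS-tDR-007592.

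Other sets were also apart between the groups. The most abundant set apart on shares was the set of 16 led by AS-tDR-000600, which was not among those with the smallest edgeR p. It held 4.19%, 3.10% and 3.08% in ICH + BYHWD and 2.64%, 2.30% and 3.01% in ICH (exact permutation p = 0.1, adjusted p = 0.589). The pair led by AS-tDR-000064 held 0.124%, 0.119% and 0.142% in ICH + BYHWD and 0.0756%, 0.0521% and 0.114% in ICH, a log2 fold change of 0.50 (adjusted p = 0.523, edgeR). The set of 8 led by AS-tDR-007981 held 0.202%, 0.246% and 0.267% against 0.0871%, 0.0392% and 0.197%. Only 1 of its 8 members was above 0 in all 9 libraries, and on that member alone the difference of 0.131 points was 0.016. The pair led by AS-tDR-007592 was lower in ICH + BYHWD, at 0.0264%, 0.0518% and 0.0303% against 0.0943%, 0.119% and 0.0696%. Its other member, AS-tDR-007583, was listed at 0 in all 3 ICH + BYHWD libraries. AS-tDR-007592 itself overlapped between the groups, at 191, 389 and 231 TPM against 552, 645 and 285 TPM. The pair was therefore apart only with the tags of AS-tDR-007583 counted.

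The set of 17 led by AS-tDR-008475 overlapped between the groups. It held 1.21%, 1.48% and 1.59% in ICH + BYHWD and 1.89%, 2.09% and 1.56% in ICH, so only ICH 3 fell among the ICH + BYHWD values. Its log2 fold change was -0.66 with TMM and -0.37 without scaling (adjusted p = 0.523, edgeR with TMM). Of its 15 members tested, 13 had a negative fold change both with TMM and without scaling. Over all 455 tested fragments, 237 were negative with TMM and 170 without scaling. In this set 0 members had an unadjusted edgeR p under 0.05, and 0 were lower without overlap of TPM levels. At that p, 4.4% of all tested fragments were higher and 2.2% lower, and 1.13% of all 530 were lower without overlap. Such small shares make a count of 0 uninformative for this set.

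Among single fragments, 0 of the 455 that passed the low-count filter were higher (0%) and 0 lower (0%) by the adjusted edgeR threshold of 0.05, with adjusted p-values of 0.533 and above. Without adjustment, 20 were higher (4.4%) and 10 lower (2.2%) at p under 0.05. Limma-voom called 0, with 16 and 21 at an unadjusted p under 0.05. DESeq2 called 4 higher and 2 lower, of which AS-tDR-007599 was the only one above 0 in all 9 libraries. On TPM levels the groups did not overlap for 52 of 530 fragments higher in ICH + BYHWD (9.81%) and 6 lower (1.13%). On shares of listed tags these counts were 48 (9.06%) and 7 (1.32%), and with TMM factors 49 (9.25%) and 17 (3.21%), so the balance depended on the scaling. The median log2 fold change of the 455 fragments was -0.09 with TMM, -0.10 with RLE factors, 0.22 without scaling and 0.18 on library totals. ICH 2 had the lowest TMM factor of the 9 libraries, 0.647.

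Directions by class also depended on the scaling. Over all 455 tested fragments, 218 were positive and 237 negative with TMM, against 285 and 170 without scaling. Of the 10 most abundant fragments, 1 had a positive and 9 a negative log2 fold change with TMM (median -0.33), against 4 and 6 without scaling (median -0.01). Medians with TMM were -0.18 in ranks 11 to 50 and -0.17 in ranks 51 to 150, and 0.22 and 0.18 without scaling. Beyond rank 150, 158 of 305 tested fragments were positive and 147 negative (median 0.03 with TMM, 0.28 without scaling). TPM levels were higher without overlap for 41 of the 380 fragments beyond rank 150 (10.8%), 9 of 100 in ranks 51 to 150 (9%), 2 of 40 in ranks 11 to 50 (5%) and 0 of the 10 most abundant. In the first and second of these classes this was close to the 9.81% over all 530 fragments. By number of rows the medians with TMM were -0.05 on 1 row, -0.07 on 2 to 4 rows and -0.15 on 5 or more rows, while without scaling they were 0.21, 0.23 and 0.25. Both the signs and the order of these medians thus turned with the scaling.

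**Figure D4:**
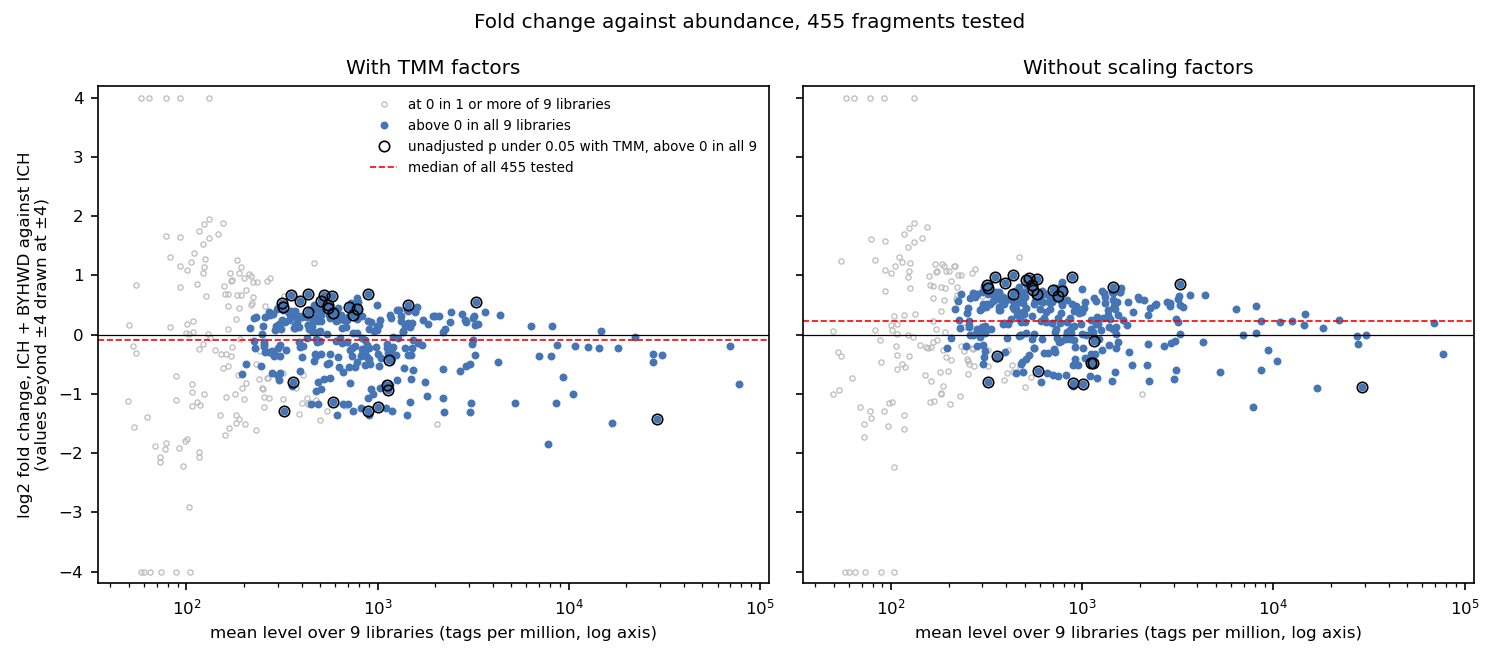
Log2 fold change of ICH + BYHWD against ICH (y axis, edgeR, values beyond the axis drawn at its ends) by mean level over all 9 libraries (TPM, log x axis) for the 455 tested fragments, with TMM factors on the left and without scaling on the right. Filled points were above 0 in all 9 libraries and open points at 0 in 1 or more. Rings in both panels mark filled points with an unadjusted p under 0.05 in the edgeR fit with TMM. The dashed line at the median moves from -0.09 to 0.22 between the panels.

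Of the fragments with the smallest p that were higher in ICH + BYHWD, several were moderately abundant and above 0 in all 9 libraries. AS-tDR-006089 was at 3660, 3715 and 5198 TPM in ICH + BYHWD 1, 2 and 3 and at 2499, 1518 and 3095 TPM in ICH 1, 2 and 3. It lay above every ICH library in each ICH + BYHWD library, with 3203 ± 319 TPM in sham (SD, n = 3). AS-tDR-006535 was at 993, 993 and 1537 TPM against 681, 355 and 799 TPM. Its groups did not overlap either, and ICH 2 was again the lowest library. Their log2 fold changes were 0.56 (SE 0.19) and 0.68 (SE 0.22), each with an edgeR adjusted p of 0.533. In the DESeq2 test over fragments the adjusted p was 0.0767 for each.

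Members of the set of 28 led by AS-tDR-002004 were also among them. AS-tDR-000395 was at 643, 475 and 616 TPM against 256, 233 and 400 TPM, AS-tDR-000393 at 636, 569 and 575 against 344, 260 and 369 TPM, and AS-tDR-000102 at 628, 595 and 829 against 413, 281 and 561 TPM. None of the 3 overlapped, while their set as a whole did. As a percentage of the set, these 3 and AS-tDR-006017 and AS-tDR-006112 were higher without overlap in ICH + BYHWD, and AS-tDR-007812 was lower. These were 5 and 1 of the 28 members. On shares of listed tags, a different scale, 9.06% of all 530 fragments were higher without overlap and 1.32% lower. Parts of a set are not independent, since a larger part of the leading fragment leaves less for the others. AS-tDR-006040 and AS-tDR-006942, members of a set of 10, were at 454, 434 and 657 TPM and at 394, 364 and 630 TPM in ICH + BYHWD. Their ICH levels were 294, 194 and 377 TPM and 249, 153 and 324 TPM, without overlap.

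On the lower side, AS-tDR-007599 was at 440, 981 and 604 TPM in ICH + BYHWD and at 1072, 1352 and 1297 TPM in ICH, without overlap. Its log2 fold change was -1.23 (SE 0.35, adjusted p = 0.533) with edgeR and -1.25 with DESeq2 (adjusted p = 0.0289). AS-tDR-010070 was at 742, 1008 and 880 TPM against 1239, 1506 and 1082 TPM, and AS-tDR-009560 at 289, 355 and 292 against 388, 502 and 360 TPM. Both were apart in TPM, though for AS-tDR-009560 only by the small gap from 355 to 360 TPM. AS-tDR-007797 was at 518, 1040 and 700 TPM against 999, 996 and 1260 TPM, AS-tDR-007988 at 495, 1179 and 619 against 1552, 1767 and 891 TPM, and AS-tDR-008565 at 352, 556 and 344 against 662, 969 and 394 TPM. In these 3 the ICH + BYHWD 2 library reached or passed an ICH library.

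Of the 10 most abundant fragments, AS-tDR-007683 and AS-tDR-007744 had the largest negative fold changes. AS-tDR-007683 was at 10904, 25102 and 15475 TPM in ICH + BYHWD and at 31829, 51069 and 16835 TPM in ICH. AS-tDR-007744 was at 6610, 13006 and 10742 against 19243, 34527 and 6551 TPM. ICH 3 was within the range of ICH + BYHWD for the former and just below it for the latter. Their log2 fold changes were -1.42 (SE 0.57) and -1.50 (SE 0.67), with an edgeR adjusted p of 0.533 each. The other members of their set among the 10, AS-tDR-007516, AS-tDR-007556, AS-tDR-007881, AS-tDR-007639 and AS-tDR-008499, had fold changes between -0.47 and 0.06.

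**Figure D5:**
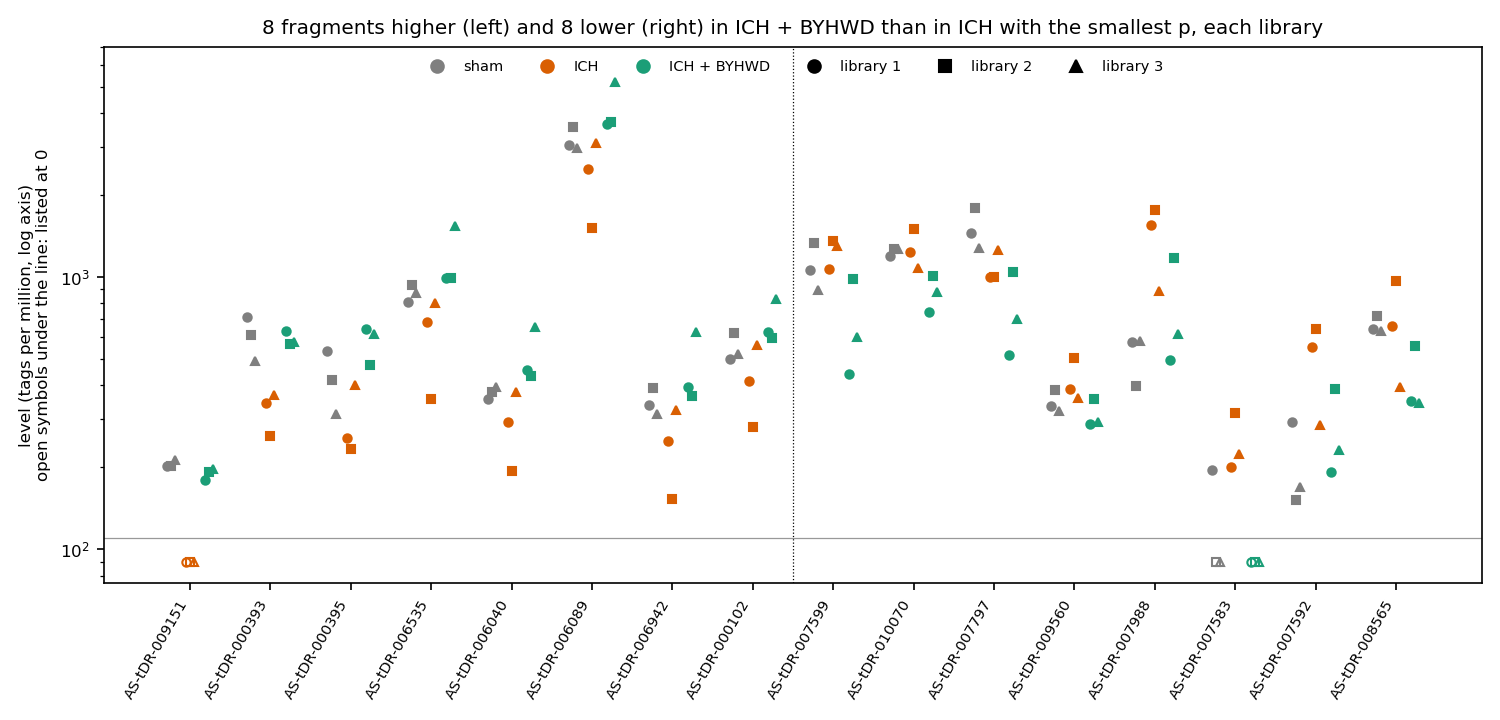
Level (TPM, log y axis) in each of the 9 libraries of the 8 fragments higher (left) and the 8 lower (right) in ICH + BYHWD than in ICH with the smallest p, with open symbols under the line for libraries that list a fragment at 0. In each of the 7 fragments on the left that ICH libraries list, ICH 2 is the lowest library, and AS-tDR-009151 and AS-tDR-007583 are each listed in all libraries of one haemorrhage group and in none of the other.

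Listing alone also differed in part by library. In all, 76 fragments were listed in more ICH + BYHWD than ICH libraries, 57 in more ICH than ICH + BYHWD libraries, and 397 in equal numbers. AS-tDR-009151 (179, 192 and 197 TPM) and AS-tDR-008333 (170, 146 and 180 TPM) were listed in each ICH + BYHWD library and at 0 in each ICH library. Their means were 1.36 and 1.19 times the mean of the lowest levels listed in the ICH libraries. AS-tDR-007583 was listed in each ICH library, at 200, 316 and 223 TPM, and at 0 in each ICH + BYHWD library, with a ratio of 1.67. All 3 ratios are lower limits of the fold only if an unlisted fragment lies below the listing minimum.

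The number of listing libraries differed by 2 or more between the groups for 34 fragments, 17 in each direction. All 17 listed more often in ICH + BYHWD were at 0 in both ICH 1 and ICH 2, and 10 of them were above 0 in ICH 3. Of the 17 listed more often in ICH, 16 were above 0 in both ICH 1 and ICH 2, and 10 of these were at 0 in ICH 3. For fragments listed in no ICH library or in all 3, the state in ICH 1 and ICH 2 was fixed by this choice. Only the 10 and the 10 thus show which ICH library differed from the others. The highest level of any of the 34 in the 6 libraries was 444 TPM.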

How the data were processed

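The authors deposited 1 table per library with a fragment identifier, a TPM and a whole-number tag count that is not normalized, per the file headers. In each table the deposited TPM is the count over 1 library total times a constant, without a length term. Total RNA was pretreated to remove modifications of tRNA that hinder library making, inserts of 15 to 50 nt were selected and 50 cycles were run, per the labels' protocols. The tools listed are cutadapt, FastQC and Novoalign 2.07.11, and hg19, a human assembly, is the build listed, per the submitters' processing notes. The sources used here do not give what that build was used for, how fragments were annotated or how tags were counted.

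Each table held 2122 rows for 530 fragments, and 1 row per fragment was kept. Library totals of all 9 libraries, recovered from count and TPM, were 530827 to 1066616 tags. The labels name no batch, and the numbers 1 to 3 only name libraries in accession order. A share of a library printed for an abundance or row class had a 95% Wilson interval at most 0.305 percentage points wide, and one for a named set at most 0.261 points. Relative to the share itself, the widest interval was 2.02% for classes and 41.5% for named sets. The latter was for the pair led by AS-tDR-007592 in sham 3. These intervals cover counting error within a library only. They take each tag as independent, and tags carry no molecular identifiers with which this could be checked.

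Counts were tested with edgeR 4.0.16 in R 4.3.3, using TMM factors, filterByExpr (minimum count 10), a robust quasi-likelihood fit on the 9 libraries together and Benjamini-Hochberg adjustment over the 455 fragments or 181 sets tested, at a threshold of 0.05. Standard errors restate the unadjusted p. DESeq2 1.42.0 and limma 3.58.1 were alternatives. Single values per library were compared by two-sided exact permutation over 20 assignments, adjusted over 56 tests. The edgeR, limma-voom and DESeq2 fits, but not the exact tests, were checked on simulated counts. These were drawn with a dispersion (negative binomial spread) of 0.05 and no listing minimum. The common dispersion that edgeR estimated from these data was 1.02, so the check does not show how the fits perform at this spread. Fragments named were those with the smallest p (8 higher, 8 lower), the 10 most abundant, those listed in all libraries of one group and none of the other, and the leading members of named sets. Sets named were the 5 most abundant and those with the smallest p (3 higher, 3 lower). AS-tDR-007412, AS-tDR-007812, AS-tDR-006017, AS-tDR-006112, AS-tDR-000045, AS-tDR-010041, AS-tDR-010048 and the set led by AS-tDR-000600 were named after their values were seen. The members, classes and lists were chosen with earlier results of these data known.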

Additional observations from a re-analysis of the deposited data

How the results depend on the processing

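No paired analysis was possible because titles of different groups carry no common replicate number. EdgeR calls stayed at 0 for fragments and sets under every scaling, filter, zero and leave-one-out alternative run. Limma-voom, run with all 9 libraries only, also called 0, while DESeq2 gave 4 higher and 2 lower fragments and 3 higher and 3 lower sets. Of 212 alternative values for the pool measures, 196 moved by less than the spread between replicates. The difference in the share of ranks 11 to 50 (0.521 points) was -0.481 of library totals, -0.448 without the most abundant fragment, -0.903 with class limits at ranks 5, 25 and 100, and -0.482 to 1.18 with 1 library left out. With row classes of 1, 2 to 9 and 10 or more, the middle class differed by 5.84 points and the last by -7.01. Joining sets at 3 or more places gave 0.251 points for the set of AS-tDR-006089 and 0.0154 for that of AS-tDR-007981. On fragments above 0 in all 9 libraries, the set of AS-tDR-007981 differed by 0.016 points and that of AS-tDR-007592 by -0.028. The number of fragments holding 50% of tags differed by 14 when counted over library totals. With 1 library left out, the number of fragments above 0 differed by -2.5 to 12.7 and the mean distance within groups by -0.155 to 0.020. The cause was not tested. Of the named fold changes, 27 of 31 fragments and 8 of 10 sets kept their sign in each alternative. The exceptions were AS-tDR-001297, AS-tDR-007639, AS-tDR-007579 and AS-tDR-008499, and the sets of AS-tDR-001297 and AS-tDR-007579, and each of these had a small fold change. Fragments near the listing minimum of each library limit what can be read from a 0. With 3 libraries a group, the exact tests could not pass 0.05.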
